A study of Mus musculus with 6 samples.

Results

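Pyramidal neurons of area CA1 form the main output of the hippocampus and are distinguished from their CA2, CA3 and dentate neighbors by a set of genes expressed at higher levels in CA1. A group of 8 such genes was examined here in total hippocampal RNA: Wfs1, Fibcd1, Mpped1, Pou3f1, Spink8, Gpr161, Man1a and Nov, out of 55471 genes in the count table. These genes were selected on the comparison of CBP-ifKO with Control, gene by gene, in the same 6 libraries that are described here. Their log2 ratios between genotypes are therefore given without a test. All 8 were among the 17981 genes that passed the filter on low counts.

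The libraries came from C57BL/6 mice (C57BL/6J in the study's methods) aged 3 to 6 months, and there were 3 Control and 3 CBP-ifKO samples. CBP-ifKO mice carry floxed Crebbp alleles (Crebbp_flox) and a tamoxifen-inducible Cre recombinase (Camk2a_creERT2), which is driven by the Camk2a promoter and so acts in forebrain excitatory neurons rather than in CA1 alone. Both groups received 5 administrations of tamoxifen. Control animals are described in the protocol as littermates lacking the driver, and the study's methods say the same of all ifKO controls. By those words the groups differ in the driver as well as in Crebbp. The description attached to the Control samples nevertheless names Camk2a_creERT2. Whether Control animals carried the floxed allele was not given in the sources used here. Each sample was made from the pooled hippocampi of several females, according to the study's methods.

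Total counts ran from 10199008 to 14950257 per library. Levels are given as CPM, read counts scaled to a common library size after a TMM correction for composition. Values for single libraries follow the order of the replicate numbers, and a log2 ratio is the log2 fold change of CBP-ifKO over Control. Crebbp, which encodes the acetyltransferase CBP, was lower in each CBP-ifKO library, which averaged 98.4 ± 10.8 CPM against 191.2 ± 30.1 CPM for Control (SD, n = 3; log2 ratio -0.96 ± 0.10 SE, edgeR adjusted p 3.63e-05). Esr1, part of which is contained in the driver, averaged 66.7 ± 2.91 CPM in CBP-ifKO and 6.07 ± 0.362 CPM in Control. The 3 Control libraries thus lay near each other for Esr1, between 5.65 and 6.29 CPM, and far below all CBP-ifKO libraries. Every gene of the hippocampal region lists used below (CA1, CA2, CA3, dentate granule cells) had reads in at least 1 library.

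CBP is a transcriptional coactivator that is recruited to promoters and enhancers by DNA-binding factors such as CREB and acetylates histones there. The proteins of the CA1 group share no family. Wolframin, the product of Wfs1, is a membrane glycoprotein of the endoplasmic reticulum with a role in calcium balance, and its loss causes Wolfram syndrome. Man1a encodes a Golgi mannosidase that trims N-linked glycans. Fibcd1 and Gpr161 encode membrane receptors, a receptor with a fibrinogen-like domain that binds acetylated sugars and an orphan G protein-coupled receptor that restrains hedgehog signaling at the primary cilium. Nov (also called Ccn3) and Spink8 encode secreted proteins, a matricellular CCN protein and a Kazal-type protease inhibitor. Pou3f1 is a POU-domain transcription factor, and Mpped1 carries a metallophosphoesterase domain.

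Because CBP acts at promoters, the sequence just upstream of start sites in the RefSeq annotation is shown for the members that could be matched. RefSeq promoter windows (build GRCm38.p6, 250 bases before the start site) were matched for 5 of the 8 genes, with 7 windows in all. Only bases outside annotated exons are shown, so that 27 bases remain for Wfs1, whose other 223 bases lie in an exon of a GENCODE transcript. The stretches shown for Man1a and Mpped1 lie within the GENCODE bounds of these genes, given below, and so not upstream of the whole gene. Capitals mark each GGGCGG (GC box) and each TGACG (the core of the cAMP response element, CRE) on either strand, so that CCGCCC and CGTCA are the same motifs read from the other strand.
Wfs1, chr5:36989206-36989232, minus strand: GGGCGGcgagggggcagggccggggcc
Fibcd1, chr2:31846006-31846255, minus strand: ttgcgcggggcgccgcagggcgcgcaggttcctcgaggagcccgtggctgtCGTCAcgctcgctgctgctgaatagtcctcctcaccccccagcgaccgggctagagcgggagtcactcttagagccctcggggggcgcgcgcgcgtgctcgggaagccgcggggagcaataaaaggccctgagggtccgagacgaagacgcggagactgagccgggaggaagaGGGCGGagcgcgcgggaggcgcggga
Mpped1, chr15:83779773-83779981, plus strand: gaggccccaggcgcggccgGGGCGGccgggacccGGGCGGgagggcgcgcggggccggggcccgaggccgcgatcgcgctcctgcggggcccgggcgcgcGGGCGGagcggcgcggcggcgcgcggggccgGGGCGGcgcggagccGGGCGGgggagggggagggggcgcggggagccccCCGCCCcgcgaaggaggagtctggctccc
Man1a, chr10:54075797-54075921, minus strand: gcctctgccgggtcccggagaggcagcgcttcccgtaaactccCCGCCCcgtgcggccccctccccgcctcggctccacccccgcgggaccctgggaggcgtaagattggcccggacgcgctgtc
Gpr161, chr1:165295516-165295765, plus strand: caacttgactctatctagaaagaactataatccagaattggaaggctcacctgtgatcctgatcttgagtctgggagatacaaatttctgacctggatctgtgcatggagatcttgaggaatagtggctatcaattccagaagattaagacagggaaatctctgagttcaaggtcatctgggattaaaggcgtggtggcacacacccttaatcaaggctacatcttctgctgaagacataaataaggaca

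The windows were of different kinds. Over the full 250 bases, GC content was 69.6% for Wfs1, 71.6% for Fibcd1, 72.4% for Man1a and 88.8% for the Mpped1 window shown, against a median of 52.4% over all 32851 windows. These windows held 23, 34, 31 and 47 CpG dinucleotides, against a median of 6. The Gpr161 window shown was at the other end, with a GC content of 42.4% and 1 CpG, and the second windows of Gpr161 and Mpped1 had 5 and 2. GC boxes were present in 4 of the 7 windows, with 4 matches for Wfs1, 1 for Fibcd1, 2 for Man1a and 7 for Mpped1, and 32.7% of all windows held at least 1. The CRE core occurred in the windows of Fibcd1 and Man1a, which is 2 of 7, against 17.8% of all windows. The Man1a core and some of the GC boxes of Wfs1, Man1a and Mpped1 fall in the exon bases that are not shown. The full CRE (TGACGTCA), the AP-1 site (TGANTCA), the octamer bound by POU factors (ATGCAAAT) and the TATA box (TATAAA) had no match in the 7 windows, and were held by 1.55%, 6.75%, 1.60% and 12.4% of all windows. The E-box (CANNTG) had matches in 4 of the 7 windows and CCAAT in 3, against 66.2% and 33.8% of all windows. Every motif was searched on both strands, and overlapping matches were counted. A match in these letters is a description of the window and not of binding.

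All 8 genes had a lower mean level in CBP-ifKO than in Control, with log2 fold changes from -1.19 to -0.18 and a median of -0.33. The median over the 17981 genes tested was -0.0033. In 6 of the 8 every CBP-ifKO library lay below every Control library, and 13.9% of all genes tested did so. As the group was chosen with this contrast known, nothing is read from that count. RNA of the whole hippocampus does not separate fewer CA1 cells from less RNA per cell.

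Wfs1 differed most. Its level was 49.4, 45.6 and 52.2 CPM in the Control libraries against 22.9, 20.8 and 21 CPM in the CBP-ifKO libraries. The lowest Control library was 22.7 CPM above the highest CBP-ifKO library, a gap many times the SD within either group. The mean in CBP-ifKO, 21.5 ± 1.16 CPM (SD, n = 3), was 43.9% of the Control mean of 49.1 ± 3.29 CPM (log2 ratio -1.19 ± 0.085 SE). These values rest on 526, 531 and 526 reads in Control and 236, 316 and 255 reads in CBP-ifKO. Wfs1 (ENSMUSG00000039474) lies on chromosome 5, 36966104 to 36989205 (GRCm38), and shares no exon bases with another gene. Only 0.256% of the genes tested had a lower log2 fold change.

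The receptor gene Fibcd1 (ENSMUSG00000026841, chromosome 2, 31813290 to 31846005) varied least between replicates. It stood at 131.8, 131.3 and 131.6 CPM in the Control libraries against 84.4, 84.0 and 87.3 CPM in the CBP-ifKO libraries. The groups were separated by 44.0 CPM, and the CBP-ifKO mean was 64.8% of the Control mean (log2 ratio -0.63 ± 0.059 SE). Mpped1 (ENSMUSG00000041708, chromosome 15, 83779467 to 83858494) had 134.3, 142.1 and 139.4 CPM in the Control libraries against 95.8, 85.8 and 89.0 CPM in the CBP-ifKO libraries. The libraries did not overlap for this gene either, and the mean in CBP-ifKO was 65.1% of that in Control (log2 ratio -0.62 ± 0.064 SE). Fibcd1 and Mpped1 kept nearly the same ratio to each other, with 95.0 ± 2.88 Fibcd1 reads per 100 Mpped1 reads in Control and 94.7 ± 5.74 in CBP-ifKO (SD, n = 3).

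Pou3f1 and Man1a were lower by a smaller margin. The transcription factor gene Pou3f1 (ENSMUSG00000090125, chromosome 4, 124656807 to 124660655) had 19.6, 25.2 and 23.0 CPM in the Control libraries against 16.7, 17.7 and 17.3 CPM in the CBP-ifKO libraries. Control replicate 1 came within 1.88 CPM of the highest CBP-ifKO library (log2 ratio -0.39 ± 0.11 SE), and 8.57% of the exon bases of Pou3f1 are shared with Gm2164 on the other strand. Man1a (ENSMUSG00000003746, chromosome 10, 53904785 to 54076609) had 131.0, 122.8 and 124.8 CPM in the Control libraries against 110.3, 109.0 and 94.2 CPM in the CBP-ifKO libraries. The gap between its groups was 12.5 CPM, and CBP-ifKO replicate 3 was the lowest library (log2 ratio -0.27 ± 0.069 SE). Man1a shares 1.52% of its exon bases with Gm16998 on the other strand.

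For the remaining members the groups met or overlapped. Gpr161 (ENSMUSG00000040836, chromosome 1, 165295789 to 165326745) had 132.1, 114.2 and 128.6 CPM in the Control libraries against 113.8, 108.0 and 110.3 CPM in the CBP-ifKO libraries. The gap between its groups, 0.459 CPM, was narrowed by Control replicate 2, which lay beside CBP-ifKO replicate 1 (log2 ratio -0.18 ± 0.067 SE). Without Control replicate 2 the Gpr161 value was -0.23. Nov (ENSMUSG00000037362, chromosome 15, 54745702 to 54754039) had 151.2, 183.5 and 169.9 CPM in the Control libraries against 144.6, 156.3 and 145.0 CPM in the CBP-ifKO libraries. Here CBP-ifKO replicate 2 was above Control replicate 1, and the log2 fold change was -0.18 (SE 0.071), or -0.10 without Control replicate 2. Spink8 (ENSMUSG00000050074, chromosome 9, 109812280 to 109826633), the member with the fewest reads, had 15.5, 16.7 and 13.8 CPM in the Control libraries against 14.0, 11 and 14.9 CPM in the CBP-ifKO libraries. Both CBP-ifKO replicates 1 and 3 were above Control replicate 3. Its log2 fold change of -0.22 had an SE of 0.13, and between 139 and 194 reads per library carry it. Without CBP-ifKO replicate 2 the Spink8 value was -0.08.

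**Figure D1:**
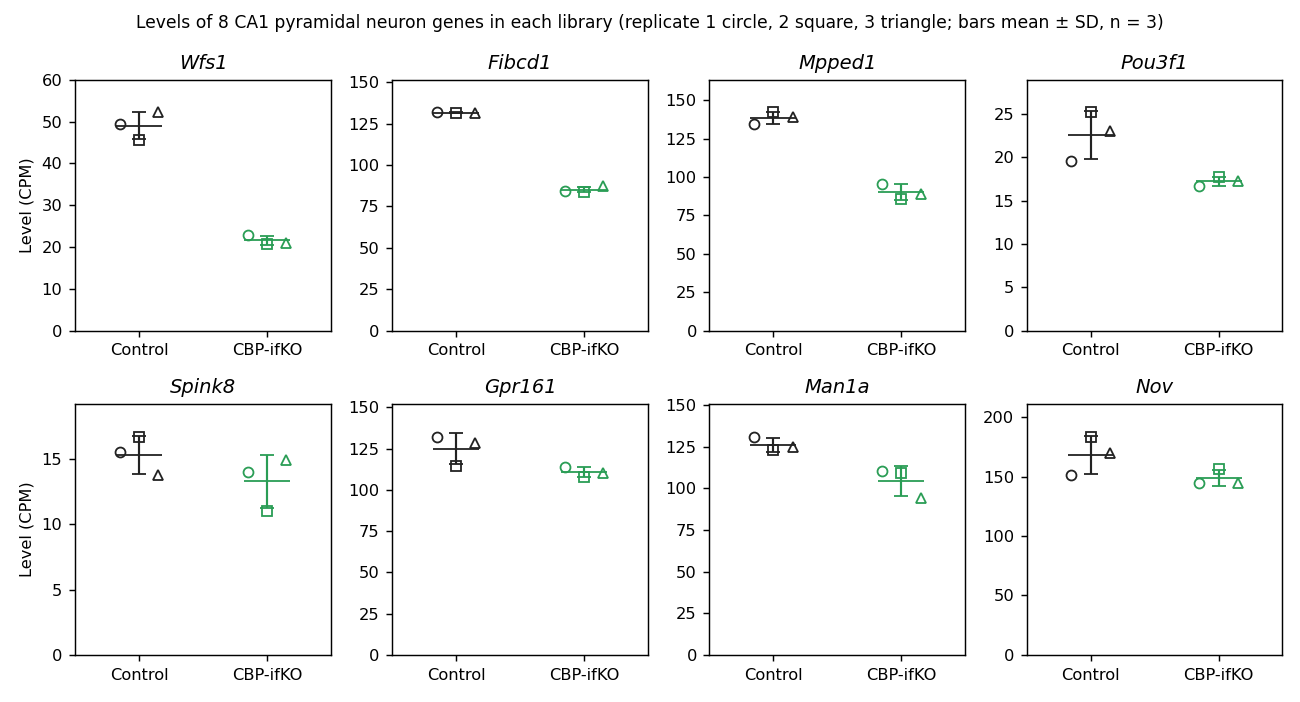
Level of each of the 8 CA1 genes (vertical axis, CPM from 0) in the 3 Control libraries (black) and the 3 CBP-ifKO libraries (green), with symbols for the replicate number and bars for the mean ± SD. Wfs1, Fibcd1 and Mpped1 are split by wide gaps (22.7, 44.0 and 38.5 CPM), whereas the libraries of Spink8 and Nov overlap.

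The mean deviation of the 8 genes from their own averages was 0.20, 0.25 and 0.23 on the log2 scale in the Control libraries against -0.19, -0.26 and -0.23 in the CBP-ifKO libraries. All 8 means stayed lower in CBP-ifKO when any 1 of the 6 libraries was left out, which is a description of genes chosen on this contrast. Control replicate 2 was the highest Control library for 4 members and the lowest for the other 4. It was thus at an end of its group for all 8, with no common direction. Without it edgeR called 1326 genes over the whole table, against 1149 with all 6 libraries.

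The members did not differ from each other in level the way they differed between genotypes. Per kilobase of exon, the order of levels in Control was Nov (58.6 ± 5.64 CPM per kb, SD, n = 3), Mpped1 (32.3 ± 0.913), Fibcd1 (27.7 ± 0.0517), Spink8 (18.7 ± 1.76), Gpr161 (18.0 ± 1.36), Man1a (13.1 ± 0.441), Wfs1 (13.0 ± 0.869) and Pou3f1 (5.87 ± 0.726). Spink8 and Gpr161 differed by less than their spread, as did Man1a and Wfs1. In CBP-ifKO the order of the 8 genes was unchanged, but Wfs1, at 5.69 ± 0.305 CPM per kb, had moved away from Man1a (10.8 ± 0.925) and stood next to Pou3f1 (4.48 ± 0.140). Fibcd1 (17.9 ± 0.380), Spink8 (16.2 ± 2.49) and Gpr161 (15.9 ± 0.418) then lay within the spread of Spink8.

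**Figure D2:**
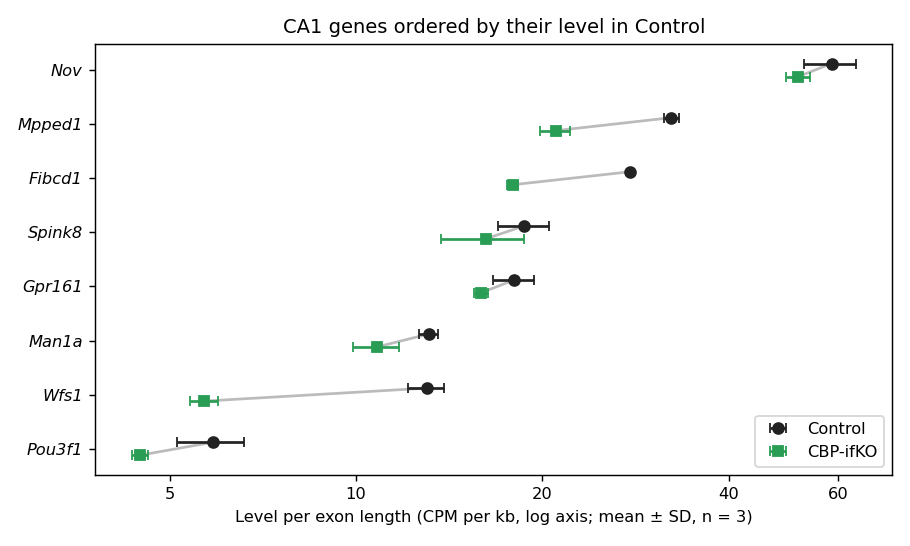
Level of each CA1 gene per kilobase of exon (horizontal axis, CPM per kb on a log scale), as mean ± SD of 3 Control (black circles) and 3 CBP-ifKO libraries (green squares), ordered by the Control level. Wfs1 lies beside Man1a in Control (13.0 and 13.1) and beside Pou3f1 in CBP-ifKO (5.69 and 4.48).

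Ratios of raw reads within a library, which do not depend on scaling, showed the same inequality. There were 37.7, 37.1 and 41.8 Wfs1 reads per 100 Man1a reads in the Control libraries against 20.7, 19.1 and 22.3 in the CBP-ifKO libraries. Against Fibcd1, Wfs1 had 37.3 ± 2.46 reads per 100 in Control and 25.3 ± 1.61 in CBP-ifKO (SD, n = 3). Gpr161 and Nov, whose differences were small, kept their ratio, with 75.1 ± 12.5 and 74.6 ± 4.97 Gpr161 reads per 100 Nov reads. These ratios restate the unequal log2 fold changes of the members without scaling, and they were not tested.

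The next comparison asked whether other genes of CA1 pyramidal neurons differed as well. Of 10 such genes outside the group, all tested, 4 were called lower by edgeR and 0 higher, at an adjusted p under 0.05 over all genes. Across all genes tested, 6.39% were called, 4.99% lower and 1.40% higher. The gene lists here and below were chosen with earlier results of these data known. Their counts beside this share may reflect that choice and are a description. The median log2 fold change of the 10 was -0.31. At an unadjusted p under 0.05 there were 8, and DESeq2 and limma-voom called 4 each. The share of all genes tested at that unadjusted threshold is not given. Counts at an unadjusted p, here and below, therefore have no background and are a description. Their summed level ran from 686.6 to 693.1 CPM in Control and from 570.8 to 623.9 CPM in CBP-ifKO.

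Grp, which encodes gastrin-releasing peptide, fell the most of these. It had 13.8, 14.1 and 14.6 CPM in the Control libraries against 6.01, 6.70 and 7.82 CPM in the CBP-ifKO libraries (log2 ratio -1.04 ± 0.13 SE, edgeR adjusted p 1.98e-04). The groups lay far apart, with a Control SD of 0.393 CPM. Dcn, which encodes the proteoglycan decorin and is also made by fibroblasts, had 58.3, 57.5 and 57.9 CPM in the Control libraries against 30.7, 38.7 and 37.4 CPM in the CBP-ifKO libraries (log2 ratio -0.69 ± 0.084 SE, edgeR adjusted p 1.33e-04). Crym, the gene of the thyroid hormone-binding protein mu-crystallin, fell from 175.4 ± 11.1 to 135.9 ± 10.5 CPM (SD, n = 3; log2 ratio -0.37 ± 0.069 SE, edgeR adjusted p 0.00399). Grp, Dcn and Crym stayed called under all 16 alternatives.

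The transcription factor gene Etv1 fell from 97.9 ± 8.99 to 79.4 ± 5.89 CPM (SD, n = 3; log2 ratio -0.30, edgeR adjusted p 0.0291). Its call was less firm, since it was lost with library totals only (adjusted p 0.0629) and without Control replicate 1 (0.112), Control replicate 3 (0.124), CBP-ifKO replicate 1 (0.0565), 2 (0.0559) or 3 (0.191). Ndst4, Htr2c, Gpc3 and Nr2f2, with log2 fold changes from -0.34 to -0.26, were not past the threshold (edgeR adjusted p 0.0539, 0.0594, 0.338 and 0.134). Calb1, the calbindin gene that is also strong in dentate granule cells, had 153.9 ± 12.6 and 179.9 ± 15.4 CPM (log2 ratio 0.23, edgeR adjusted p 0.0789). Without Control replicate 2, 7 of the 10 genes were called, with Htr2c (adjusted p 0.0116) and Nr2f2 (0.0197) lower and Calb1 (0.0104) higher.

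The other hippocampal fields were read in the same way for comparison. The median log2 fold change was -0.11 for 7 CA2 genes, -0.25 for 8 CA3 genes and -0.19 for 11 dentate granule cell genes. Calls were 2 of 7, 3 of 8 and 7 of 11, against 6.39% of all genes tested, and the dentate list held calls in both directions, 5 lower and 2 higher. In CA2, Rgs14 (-1.25) and Necab2 (-0.85) fell, with edgeR adjusted p of 8.34e-07 and 1.32e-04. In the dentate list, Lct (0.71) and Npnt (0.56) rose, with edgeR adjusted p of 6.5e-05 and 0.00409. The dentate genes that fell were C1ql2 (-2.22), Plk5 (-0.93), Tdo2 (-0.89), Trpc6 (-0.81) and Pdzd2 (-0.57), with edgeR adjusted p between 7.27e-06 and 0.00172. In CA3, Cpne4 (-0.42), Prss35 (-0.71) and Nnat (-0.31) were called (edgeR adjusted p 7.15e-04, 0.0108 and 0.0347), where Nnat lost its call under 7 of 16 alternatives, 5 of them without Control replicate 2 or 3 or any 1 CBP-ifKO library (adjusted p from 0.0913 to 0.162), and Prss35 without CBP-ifKO replicate 2 (0.0646). As these lists too were chosen with earlier results known, their counts are a description. The lists were not tested against each other, and nothing here is called particular to CA1.

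**Figure D3:**
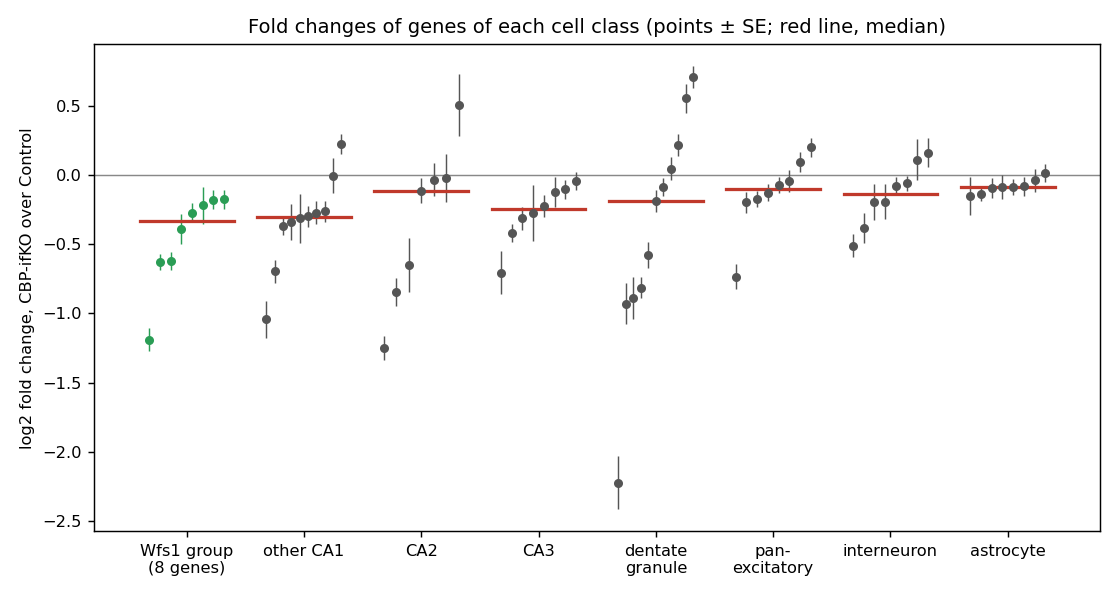
Log2 fold change of CBP-ifKO over Control (vertical axis, points ± SE) for the 8 CA1 genes with Wfs1 (green) and for genes of other CA1, CA2, CA3, dentate granule, pan-excitatory, interneuron and astrocyte lists (gray), with a red line at each median. The medians are -0.33 for the Wfs1 group, which was chosen on this contrast, and -0.31 for other CA1 genes. They are -0.11 for CA2, -0.25 for CA3, -0.19 for dentate granule, -0.10 for pan-excitatory, -0.13 for interneuron and -0.08 for astrocyte genes.

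Genes that mark excitatory neurons as a class give the background for these values. Of 8 pan-excitatory genes, 1 was called, Nrgn (neurogranin), which fell from 200.4 ± 23.1 to 120.9 ± 15.8 CPM (SD, n = 3; log2 ratio -0.73, edgeR adjusted p 1.76e-04). Slc17a7, the vesicular glutamate transporter of these neurons, had 554.1 ± 33.9 and 537.7 ± 70.8 CPM (log2 ratio -0.04, edgeR adjusted p 0.814). The summed pan-excitatory level was 6538 to 7351 CPM in Control and 6325 to 6965 CPM in CBP-ifKO, and these ranges overlap. This sum is mostly Camk2a and Grin2b. The mean log2 level of the 8 genes, which weights them equally, was 9.04, 9.01 and 9.06 in the Control libraries against 8.97, 8.81 and 8.94 in the CBP-ifKO libraries and did not overlap, and 5 of the 8 were at an unadjusted p under 0.05. Of 6 pan-neuronal genes, 3 were called lower, Rbfox3 (-0.46), Tubb3 (-0.46) and Stmn2 (-0.30), with edgeR adjusted p of 0.00300, 0.00486 and 0.00922, and the Stmn2 call was lost without Control replicate 3 (0.0930), CBP-ifKO replicate 2 (0.0511) or 3 (0.0522). Their summed level ran from 6439 to 6615 CPM in Control and from 5976 to 6141 CPM in CBP-ifKO, and the part of this shift in the CA1 values was not tested.

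Markers of other cells were compared in the same way. Of 8 genes each for astrocytes, oligodendrocytes, microglia and endothelial cells, 0 were called by edgeR, DESeq2 or limma-voom, with 1, 2, 2 and 2 genes at an unadjusted p under 0.05. In edgeR 6.39% of all genes tested were called, and at that share lists of this size or shorter can hold 0 calls. Nothing is therefore read from 0 calls. The medians of these lists were -0.08, -0.14, -0.07 and -0.13, against -0.10 for the pan-excitatory list. Genes lower in sign numbered 7, 6, 5 and 7 of 8, against 6 of 8 pan-excitatory genes. The astrocyte sum lay between 5350 and 6184 CPM in Control and between 5503 and 5631 CPM in CBP-ifKO, the oligodendrocyte sum between 2425 and 2885 and between 2492 and 2716 CPM, the microglial sum between 246.4 and 276.3 and between 239.2 and 266.1 CPM, and the endothelial sum between 190.1 and 209.7 and between 165.8 and 207.9 CPM. All of these ranges overlapped. Of 8 interneuron genes, Sst (-0.51, edgeR adjusted p 0.00154) and Slc32a1 (-0.38, edgeR adjusted p 0.0450) were called lower, and the latter call was lost under 10 of 16 alternatives, among them leaving out any 1 library other than CBP-ifKO replicate 1 (adjusted p from 0.0533 to 0.214). The 3 subiculum genes and 4 choroid plexus genes tested gave 0 calls with any of the 3 tools, with 0 and 1 at an unadjusted p under 0.05.

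When each member was set against the mean of the 8 pan-excitatory genes in the same library, all 8 log2 differences stayed negative, but they became smaller. Wfs1 was then at -1.05, Fibcd1 and Mpped1 at -0.49 each, Pou3f1 at -0.25, Man1a at -0.14, Spink8 at -0.08 and Gpr161 and Nov at -0.04 each. The reference itself included Nrgn. Without Nrgn, an alternative chosen after seeing the data, Wfs1 was at -1.14, Fibcd1 at -0.58 and Mpped1 at -0.57, and Gpr161 and Nov were at -0.13 each.

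GC content moved with the fold changes and differed among the members. When the genes tested were ordered by GC content and cut into 5 bins of equal size, the highest bin (54.5% to 78.3% in the longest transcript) had a median log2 ratio of -0.13 with 12.5% of genes called lower, against 0.06 and 1.67% in the lowest bin. Wfs1 (57.8%), Fibcd1 (59.4%) and Pou3f1 (63.9%) belonged to that highest bin, Mpped1 (53.7%) to the next, and Spink8 (46.0%), Man1a (45.4%) and Nov (44.8%) to the second lowest. With per-library trends on GC content and length removed, Wfs1 had a log2 fold change of -1.07, Mpped1 of -0.58 and Fibcd1 of -0.46. Pou3f1 moved most, from -0.39 to -0.11. Man1a (-0.29), Spink8 (-0.28), Nov (-0.24) and Gpr161 (-0.17) stayed close to their values without the correction.

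**Figure D4:**
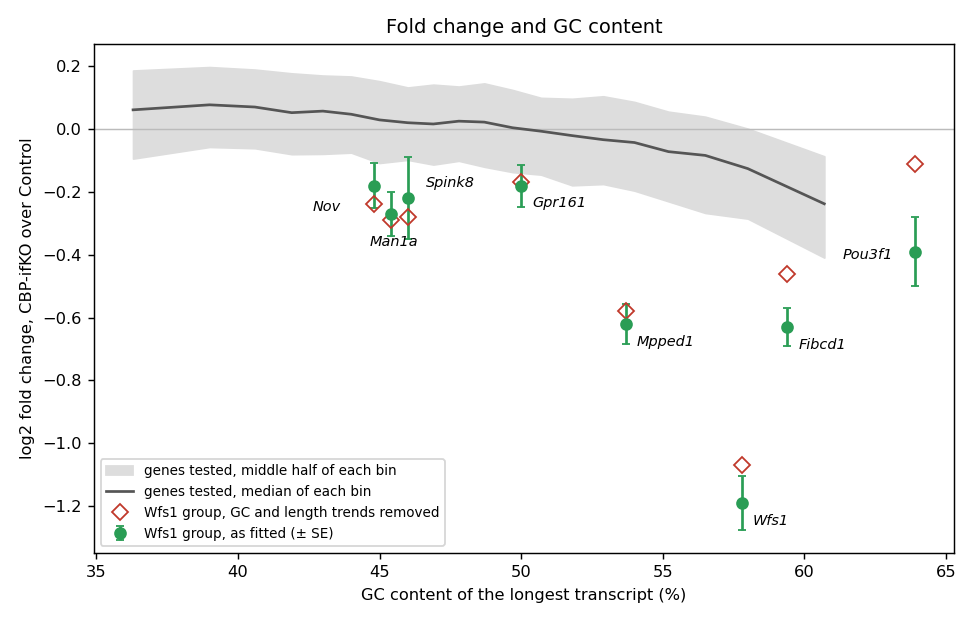
Log2 fold change of CBP-ifKO over Control (vertical axis) against the GC content of the longest transcript (horizontal axis, percent) for the 8 CA1 genes as fitted (green circles ± SE) and with GC and length trends removed (red diamonds), over the median (gray line) and interquartile range (gray band) of all genes tested in bins of equal size. Pou3f1, with the highest GC content (63.9%), moves from -0.39 to -0.11, and Wfs1 from -1.19 to -1.07. The gray line and band are from the fit without this removal, so only the circles compare with them.

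Neighboring genes were examined because they were not used in choosing the CA1 group. The nearest tested gene on each side of each member gave 16 genes, at distances from 0 to 244017 bases. Of these, 3 were called lower and 0 higher by edgeR (6.39% of all genes tested were called), and the median log2 fold change was -0.09. At an unadjusted p under 0.05 there were 4, and DESeq2 and limma-voom called 2 each. The neighbors of Fibcd1, Pou3f1, Spink8, Gpr161, Man1a and Nov were not past the threshold. Next to Gpr161 and Man1a, Tiprl (-0.02), Dcaf6 (-0.05) and Fam184a (-0.02) were close to 0. Jakmip1, on the other side of Wfs1 and overlapping another gene in 48.2% of its exon bases, had a log2 fold change of -0.26 (edgeR adjusted p 0.207).

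Both neighbors of Mpped1 were called. Efcab6, 8217 bases away, encodes an EF-hand calcium-binding protein and had 8.45, 8.33 and 8.63 CPM in the Control libraries against 5.81, 4.86 and 5.51 CPM in the CBP-ifKO libraries (log2 ratio -0.66 ± 0.15 SE, edgeR adjusted p 0.0122). Its groups did not overlap, and its fold change was about that of Mpped1 itself. Without Control replicate 3 the call was lost (adjusted p 0.0550), as it was without CBP-ifKO replicate 2 (0.0845) or 3 (0.0522). Scube1, 54445 bases away on the other side, which encodes a secreted and cell-surface protein, fell from 17.5 ± 2.64 to 12.8 ± 0.955 CPM (SD, n = 3; log2 ratio -0.45, edgeR adjusted p 0.0434). That call was lost under 11 of 16 alternatives, with both other tools, with GC and length trends removed (adjusted p 0.161) and without any 1 library other than Control replicate 2 (0.0729 to 0.211).

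Beside Wfs1, Ppp2r2c, a regulatory subunit gene of protein phosphatase PP2A that lies 11025 bases away, fell from 413.1 ± 17.7 to 350.6 ± 25.8 CPM (SD, n = 3; log2 ratio -0.24 ± 0.063 SE, edgeR adjusted p 0.0327). The difference of Wfs1 was several times as large on the log2 scale. The Ppp2r2c call was lost with library totals only (adjusted p 0.0712), with GC and length trends removed (0.0584), and without Control replicate 3 (0.182) or CBP-ifKO replicate 1 (0.0653), 2 (0.159) or 3 (0.0647).

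**Figure D5:**
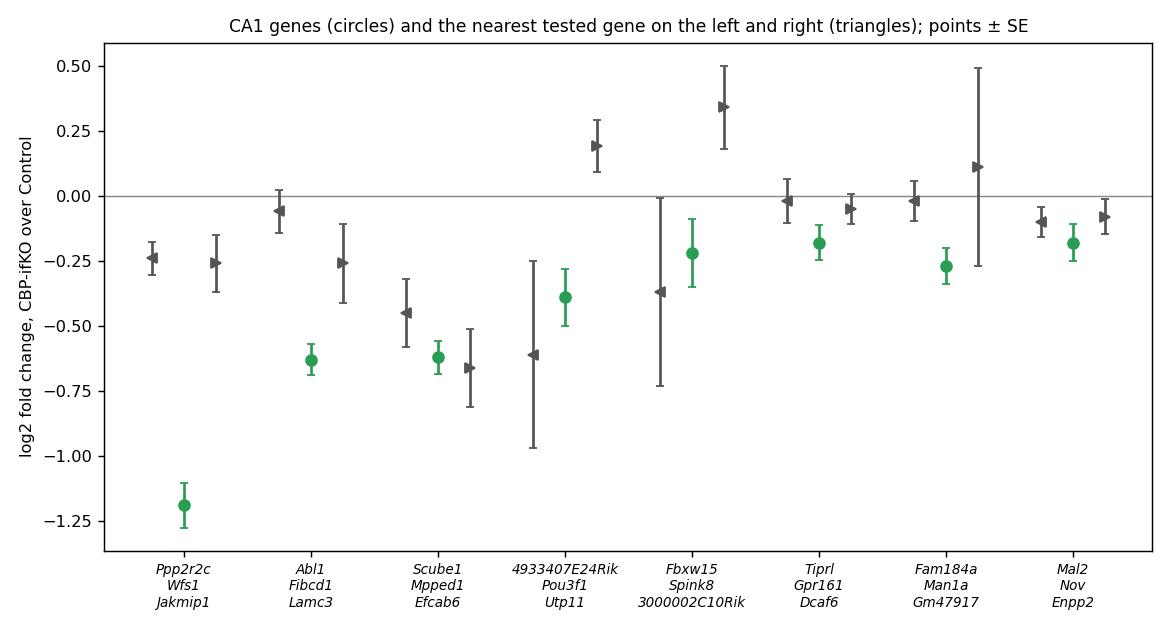
Log2 fold change of CBP-ifKO over Control (vertical axis, points ± SE) for each CA1 gene (green circle) beside its nearest tested neighbors toward lower (left triangle) and higher (right triangle) chromosome coordinates, whose names stand above and below it. Gm47917, shown to the right of Man1a, lies within Man1a on the other strand. Wfs1 (-1.19) stands apart from Ppp2r2c (-0.24) and Jakmip1 (-0.26), while Mpped1 (-0.62) lies between Scube1 (-0.45) and Efcab6 (-0.66).

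Genes that work with the members, or belong to their families, were then counted. Of 67 such genes, 59 were tested, and 5 were called by edgeR, 3 lower and 2 higher, against 6.39% of all genes. The median log2 fold change was -0.06.

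Around Wfs1, 15 genes of the endoplasmic reticulum and the unfolded protein response were tested, with 2 called higher and 1 lower. Hspa5, which encodes the chaperone BiP, rose, with 202.1, 207.2 and 191.5 CPM in the Control libraries against 243.5, 276.5 and 267.1 CPM in the CBP-ifKO libraries (log2 ratio 0.39 ± 0.062 SE, edgeR adjusted p 0.00118). The groups did not overlap, and the call held under all 16 alternatives. Calr, the gene of the calcium-binding chaperone calreticulin, rose from 283.9 ± 12.1 to 336.3 ± 11.3 CPM (SD, n = 3; log2 ratio 0.24 ± 0.057 SE, edgeR adjusted p 0.0162). Its call was lost in 4 cases, leaving out Control replicate 1 (adjusted p 0.0564), Control replicate 3 (0.11), replicate 2 of CBP-ifKO (0.0536) or its replicate 3 (0.0883). Atf6, the gene of a membrane-bound stress sensor of the endoplasmic reticulum, fell from 130.7 ± 4.10 to 107.3 ± 1.51 CPM (SD, n = 3; log2 ratio -0.28 ± 0.059 SE, edgeR adjusted p 0.00788), and lost its call without Control replicate 3 (0.0558) or CBP-ifKO replicate 3 (0.0542).

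The other 12 genes of this list were not past the threshold, and their log2 ratios lay on both sides of 0, from -0.19 (Herpud1) to 0.18 (Sdf2l1). The chaperone genes Hsp90b1 (0.13), Pdia4 (0.14) and Sdf2l1 had every CBP-ifKO library above every Control library (edgeR adjusted p 0.231, 0.257 and 0.608). So did 11.8% of all genes tested, and Pdia4 and Sdf2l1 were named after their values were seen. The stress-response genes Xbp1 (-0.08), Atf4 (-0.14), Ddit3 (-0.01) and Herpud1 had edgeR adjusted p of 0.557, 0.253, 0.978 and 0.243. Of these 4 only Xbp1 had every CBP-ifKO library below every Control library, as had 13.9% of all genes tested. Cisd2, the gene altered in the second form of Wolfram syndrome, had 57.3 ± 1.89 and 64.5 ± 2.6 CPM (SD, n = 3; log2 ratio 0.17, edgeR adjusted p 0.160).

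Around Gpr161, 0 of 11 hedgehog pathway genes tested were called by edgeR, DESeq2 or limma-voom, with 2 at an unadjusted p under 0.05. Ptch1, a hedgehog receptor and target gene, had 53.1 ± 1.93 and 55.4 ± 0.720 CPM (SD, n = 3; log2 ratio 0.06, edgeR adjusted p 0.664). Gli1, the target most often used as a readout of the pathway, was near 1 CPM in Control (1.16 ± 0.319) and had 1.75 ± 0.588 CPM in CBP-ifKO (log2 ratio 0.57 ± 0.34 SE, edgeR adjusted p 0.358), so that only a large change could have been detected at this depth. Smo, the signal transducer, had a log2 fold change of -0.41 (edgeR adjusted p 0.0627) and was called without Control replicate 1 (0.0384).

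Around Man1a, 0 of 12 genes of N-glycan processing were called by any of the 3 tools, with 2 at an unadjusted p under 0.05, and their log2 fold changes lay between -0.24 and 0.14. Its paralogue Man1a2 had 204.6 ± 10.3 and 206.7 ± 5.57 CPM (SD, n = 3; log2 ratio 0.02 ± 0.058 SE). Mpped2, the paralogue of Mpped1, had 28.1 ± 0.489 and 26.3 ± 2.22 CPM (log2 ratio -0.10 ± 0.090 SE, edgeR adjusted p 0.593). Of the CCN family apart from Nov, 3 of 5 genes were tested and 0 called by any of the 3 tools, with 0 at an unadjusted p under 0.05, at summed levels between 6.99 and 10.2 CPM.

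Among POU-domain and other hippocampal transcription factor genes, 1 of 11 was called. Pou3f3, a close relative of Pou3f1, fell from 106.9 ± 2.67 to 90.7 ± 1.79 CPM (SD, n = 3; log2 ratio -0.24 ± 0.061 SE, edgeR adjusted p 0.0273). The call was lost with library totals only (adjusted p 0.0770) and without any 1 library other than Control replicate 2 (0.0539 to 0.158). Pou3f2 was at 16.6 ± 1.25 and 16.7 ± 0.671 CPM (log2 ratio 0.02, edgeR adjusted p 0.959), and Bcl11b at -0.22 (edgeR adjusted p 0.0557). Of 6 tested genes that share the fibrinogen-like domain of Fibcd1 or the Kazal domain of Spink8, only Spock1 was called (log2 ratio -0.36 ± 0.095 SE, edgeR adjusted p 0.0317), and it was no longer called after leaving out Control replicate 1 (0.0990), Control replicate 3 (0.164), replicate 2 of CBP-ifKO (0.182) or its replicate 3 (0.111). Spink2 and Spink4 had no reads in any library.

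Finally, the genes whose profile over the 6 libraries was most like that of Wfs1 were listed by Pearson's r of log2 CPM, among 12229 genes with a mean of at least 5 CPM. They were Fbln2 (r = 0.999), Mturn (0.997), Cmtm4 (0.996), Zfp365 (0.995) and Vsnl1 (0.995). Since the 6 libraries form 2 groups that differ for Wfs1, such a correlation mostly reflects the genotype, and it is given as a description. Fbln2, which encodes the matrix protein fibulin-2, resembled Wfs1 in size as well, with 7.60, 7.30 and 8.23 CPM in the Control libraries against 3.49, 3.09 and 3.04 CPM in the CBP-ifKO libraries (log2 ratio -1.27 ± 0.17 SE). The other 4 differed less, with log2 fold changes between -0.40 and -0.24. Within the CA1 group, Fibcd1 (0.990) and Mpped1 (0.987) followed Wfs1 most closely and Nov (0.653) and Spink8 (0.544) least.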

How the data were processed

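The authors deposited a table of unnormalized read counts, 1 column per library. Per the submitters' processing notes and the study's methods, single-end reads of 50 bp were trimmed (Trim Galore 0.6.4), aligned with STAR (2.6.1) to GRCm38, filtered on mapping quality and counted over exons with Rsubread. Whether strand was used was not given in the sources used here, so overlapping genes are named.

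Identifiers were matched to GENCODE M21 (GRCm38), which named 55230 of 55471 genes. Nov is listed there as Ccn3. Genes were tested across the whole table with edgeR (4.0.16, in R 4.3.3) by its quasi-likelihood F-test, with TMM scaling, filterByExpr (minimum count 10, minimum total 15) and Benjamini-Hochberg adjustment over 17981 genes, with 0.05 as the threshold. Standard errors (SE) of log2 ratios were derived from their size over the root of the F statistic. The common biological coefficient of variation estimated by edgeR, a single value for all genes that leaves out counting noise, was 6.81%. Log2 CPM used a prior count of 2, and lengths per kb were those in the deposited table. DESeq2 (1.42.0) and limma-voom (limma 3.58.1), scaling, filters, each library left out, the replicate block and removal of GC and length trends (natural splines, 5 degrees of freedom) were alternatives.

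The members and gene lists were chosen with earlier results of these data known. Named genes were the 8 members, their nearest tested neighbors, list genes past the threshold and up to 4 others a list by level, the 5 genes most correlated with Wfs1, Crebbp and Esr1. Other list genes named (Gpc3, Slc17a7, Xbp1, Ddit3, Herpud1, Pdia4, Sdf2l1, Gli1, Smo, Pou3f2, Spink2 and Spink4) were chosen after their values were seen, and 1 gene of the CA1 list is not reported here by name. Promoter sequences are from RefSeq (GRCm38.p6). No library was a copy of another (chi-square over its degrees of freedom was 2.46 or more for every pair within a genotype). P-values measure the spread between pooled samples.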

Additional observations from a re-analysis of the deposited data

How the results depend on the processing

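All 8 members kept a negative log2 fold change in the 18 alternatives run for them. As they were chosen on this contrast in these libraries, the shared sign is a description. The values nearest 0 were -0.04 for Gpr161 and for Nov and -0.08 for Spink8. The member median was -0.20 when scaled to the pan-excitatory list and -0.28 with GC and length trends removed. It lay between -0.37 and -0.29 when single replicates were left out. Removing GC and length trends in a fit with the replicate block gave 1866 genes, 7 other CA1 genes and 8 pathway genes. The replicate block alone gave 1210 genes and 7 other CA1 genes and left the member median at -0.33, but libraries with the same number showed little shared deviation (r of 0.0769, 0.0369 and 0.00216), and the numbers are not taken as pairs. No filter on low counts gave 8 pathway genes. Neighbor calls dropped to 1 under scaling by library totals and likewise to 1 after GC and length trends were removed. Across the fits without one replicate, calls ranged from 498 to 1326 genes, 3 to 7 other CA1 genes, 0 to 3 neighbors and 1 to 9 pathway genes, and these fits have fewer samples. The neighbor count by edgeR was 1 without CBP-ifKO replicate 1, and it was 0 when Control replicate 3 or either of CBP-ifKO replicates 2 and 3 was missing, with 5, 3 and 3 neighbors at an unadjusted p under 0.05. The counts of genes called were lowest with CBP-ifKO replicate 2 (498), its replicate 3 (526) or Control replicate 3 (546) left out. Pathway calls numbered 9 when Control replicate 2 was left out, 3 for Control replicate 1, 2 for CBP-ifKO replicate 2 and 1 for either Control replicate 3 or CBP-ifKO replicate 3. Scaling by library totals turned 897 lower and 252 higher calls into 667 lower and 514 higher. Apart from fewer samples, the cause of these moves was not tested. Depth limits Spink8 and genes near 1 CPM.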
